A study of Mus musculus with 22 samples.

Results

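The collagen genes are those whose symbols read Col, a number, the letter a and a number, as in Col1a1. Of the 52526 distinct symbols measured in mouse mammary tissue, 44 have this form, and the 30 that rose above 1 CPM (reads of a gene scaled to one library size, as the authors deposited them) in at least 5 of 22 mice are described here. All mice were female C57BL/6J, 7 to 8 weeks old, and all carried EO771 mammary cancer cells, a line from the same strain made to express firefly luciferase, in a mammary fat pad of the left side, which was taken 24 h after the cells were placed. For 2 weeks before that, a cage held either a running wheel or, for sedentary controls, only the wheel's hub. Liposomes filled with PBS, or with clodronate, which is toxic to the phagocytes that engulf it, were injected 24 h before the cells and again with them. The groups were 6 hub mice and 6 wheel mice with PBS liposomes, and 5 hub mice and 5 wheel mice with clodronate liposomes. All came from 1 experiment, and each library was 1 mouse.

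Collagens are triple helices of 3 chains, which can be alike or different, and each kind of chain is the product of its own gene. Types I, III and V build the fibrils that give connective tissue its strength, type IV forms the sheet at the heart of every basement membrane, and type VI makes beaded filaments around fat cells and fibroblasts. Fibroblasts, fat cells, pericytes, endothelium and epithelium each make different sets, and before secretion every chain needs prolyl hydroxylases and the chaperone Hsp47, encoded by Serpinh1.

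The libraries held 13256467 to 20484578 reads (median 16293026), and values below 1 CPM were deposited as 1, a floor that hides at most 13 to 20 reads of a gene. The count of reads comes from 3′ ends, so a transcript's length does not scale its CPM. How fully the reads of each gene's 3′ end were counted was not checked. Levels of different genes are therefore set side by side as CPM, not as amounts of transcript or protein. All 8 fibroblast and all 8 adipocyte markers checked were above the floor in all 22 mice. In 5 mice the mean log2(CPM + 1) of 12 lymphocyte markers stood apart at 4.22 to 5.64, against at most 1.37 in the others: replicate 2 of the hub PBS mice, 3 of the wheel PBS mice, and 3, 4 and 5 of the wheel clodronate mice. The tissue was bulk, so fewer cells of a type and less RNA per cell cannot be told apart, and neither can transcripts of the host and of the engrafted cells.

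Fibril-forming chains dominated. Averaged over the 22 mice, the level was 610 CPM for Col1a2 (332 to 1086), 589 CPM for Col3a1 (216 to 1360) and 367 CPM for Col1a1 (130 to 955). Col1a1 and Col1a2 encode the chains of type I collagen, and Col3a1 encodes type III, its usual companion in soft tissue. Together these 3 genes held 48.5% to 72.4% of all collagen reads in a mouse (median 59.3%). The type IV chains common to most basement membranes came next, with 286 CPM for Col4a1 (158 to 433) and 118 CPM for Col4a2 (52.9 to 181). They were followed by Col6a3, the largest chain of type VI, at 95.8 CPM (33.7 to 157). The ranges of the neighbours Col1a2 and Col3a1 overlapped almost wholly, as did those of Col4a2 and Col6a3, so their order is not fixed by these mice.

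Below them, Col15a1, a basement-membrane-associated collagen of the multiplexin class, averaged 60.3 CPM (18.96 to 156), Col6a2 60.2 CPM (15.5 to 96.5), Col6a1 58.8 CPM (26.7 to 101) and Col5a3, a type V chain, 54.7 CPM (12.9 to 127). Col5a2, Col17a1, Col5a1, Col14a1, Col18a1, Col16a1 and Col8a1 averaged 52.8, 50.6, 47.8, 33.7, 26.8, 25.5 and 15.1 CPM. The other 13 kept genes averaged 1.36 to 8.47 CPM, from Col8a2 at the bottom to Col27a1 at the top. In all, 20 of the 30 were above the floor in every mouse and the other 10 in 11 to 20 mice, so the values of the latter are partly set by the floor. Summed over the 30 genes, the collagen level was 3169 ± 935 CPM (SD, n = 6) in hub PBS mice, 2929 ± 646 (n = 6) in wheel PBS mice, 2177 ± 465 (n = 5) in hub clodronate mice and 1930 ± 542 (n = 5) in wheel clodronate mice. In single mice the collagens took 0.237% to 0.713% of the reads assigned to genes.

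**Figure D1:**
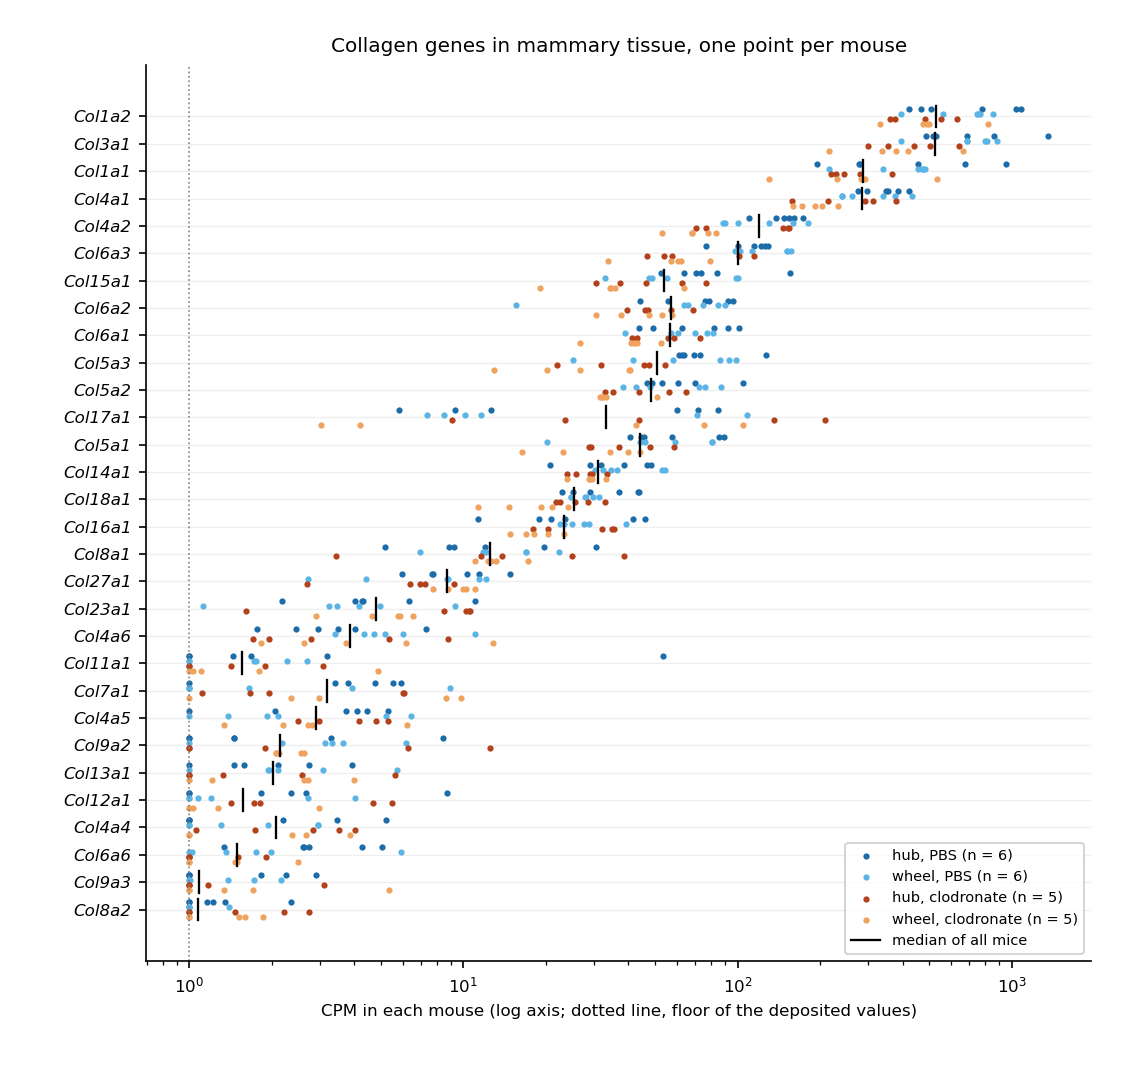
CPM of the 30 collagen genes in each mouse, on a log axis, with 1 point per mouse in the colour of its group and a black line at the median of all 22 mice; the dotted line is the floor. Medians run from 531 CPM for Col1a2 and 524 for Col3a1 down to 1.08 for Col8a2, just above the floor, and the points of Col17a1 spread the widest, from 3.04 to 208 CPM.

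With clodronate liposomes most of the abundant collagens were lower than with PBS. The groups were compared with limma on log2(CPM + 1) over 15138 genes, with Benjamini-Hochberg adjustment over all of them, and the liposome effect was averaged over hub and wheel mice. Of the 30 collagens, 1 passed an adjusted p of 0.05, against 0.205% of all genes, and that gene, Col6a3, fell. At an unadjusted p under 0.05, 14 of the 30 were lower and 0 were higher, against 8.3% of all genes that were lower. The median difference over the 30 genes was -0.36 on the log2 scale, beside -0.04 over all genes tested, and 21 of the 30 were lower, beside 57.4% of all genes. Among the 20 collagens above the floor in every mouse, 17 were lower, 13 of them at an unadjusted p under 0.05, with a median of -0.48.

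Col6a3 (chromosome 1, 90765923 to 90843971, minus strand, GRCm38) encodes the type VI chain from which the fragment endotrophin is cut. Its level was 76.6 to 129 CPM (median 118) in hub PBS mice and 97.6 to 157 CPM (median 132) in wheel PBS mice. In hub clodronate mice it was 46.8, 54.0, 57.8, 101 and 115 CPM, and in wheel clodronate mice 33.7, 57.2, 60.6, 62.1 and 79.3 CPM. Every wheel clodronate mouse lay below every wheel PBS mouse, while 2 of the hub clodronate mice lay among the hub PBS mice. The difference was -0.89 ± 0.16 on the log2 scale (SE), 0.54 times the PBS level of CPM + 1, with an adjusted p of 0.0181 by limma. Within the 2 activity groups it was -0.63 ± 0.23 in hub mice (adjusted p = 0.564) and -1.14 ± 0.23 in wheel mice (adjusted p = 0.109). Without the 5 mice with a high lymphocyte level the averaged difference was -0.94 with an adjusted p of 0.0885, so the size held and the call did not. Of those 5, 3 were wheel clodronate mice, so that fit was also smaller. In it the unadjusted p of Col6a3 was 8.01e-05 by limma, and 0 of all genes were called, against 31 with all mice. Leaving out replicate 2 or replicate 3 of the hub clodronate mice gave an adjusted p of 0.0526 or 0.0539.

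Col5a3 (chromosome 9, 20770050 to 20815067, minus strand), the type V chain that is prominent in fat and muscle, had the largest size of difference of the 14, at -1.06 ± 0.24 (limma, adjusted p = 0.0590). Its level was 61.4 to 127 CPM (median 66.8) in hub PBS mice and 25.1 to 98.8 CPM (median 72.2) in wheel PBS mice. With clodronate it was 21.9, 31.7, 45.6, 47.5 and 54.5 CPM in hub mice and 12.9, 20.2, 26.7, 40.4 and 40.4 CPM in wheel mice. All 5 hub clodronate mice lay below all 6 hub PBS mice, whereas the wheel groups overlapped. In hub mice the difference was -0.93 ± 0.33 (adjusted p = 0.564) and in wheel mice -1.19 ± 0.33 (adjusted p = 0.191). The adjusted p ran from 0.0237 to 0.148 as single mice were left out. It was under 0.05 without any of hub PBS replicate 4, wheel PBS replicate 5, hub clodronate replicate 1 and wheel clodronate replicates 1 and 5.

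Counting Col5a3, all 8 fibrillar genes tested had an averaged difference below 0, 6 of them at an unadjusted p under 0.05, with a median of -0.58. In hub mice alone all 8 were lower. In wheel mice 6 were lower, and Col27a1 (0.35) and Col11a1 (0.01) lay above 0. Col3a1 (chromosome 1, 45311538 to 45349706, plus strand) was at 486 to 1360 CPM (median 610) in hub PBS mice and 394 to 886 CPM (median 742) in wheel PBS mice. With clodronate it was at 300, 353, 440, 503 and 644 CPM in hub mice and at 216, 337, 378, 420 and 666 CPM in wheel mice. The groups overlapped, and the difference of -0.77 ± 0.20 had an adjusted p of 0.102 by limma. The type I genes showed smaller differences. Col1a1 was at 472 ± 292 CPM (SD, n = 6) in hub PBS, 406 ± 108 (n = 6) in wheel PBS, 268 ± 59.6 (n = 5) in hub clodronate and 293 ± 149 (n = 5) in wheel clodronate mice, a log2 difference of -0.59 (adjusted p = 0.388 by limma). For Col1a2 the difference was -0.45 (adjusted p = 0.393). Col5a1 and Col5a2, which form type V with Col5a3 and help set fibril width, differed by -0.65 and -0.57 (adjusted p = 0.263 and 0.170).

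For 3 of these genes and for the chaperone gene Serpinh1, the 250 bases before the annotated start are printed, as the stretches next to the transcripts with the largest differences among fibrillar, type VI and chaperone genes. They are RefSeq sequence of build GRCm38.p6, read along the gene from 5′ to 3′, at chr1:90843972-90844221 (minus) for Col6a3, chr9:20815068-20815317 (minus) for Col5a3, chr1:45311288-45311537 (plus) for Col3a1 and chr7:99353240-99353489 (minus) for Serpinh1, and capitals mark matches on either strand to TATAAA (the letters of a TATA box), to CCAAT (those of a CCAAT box) or to GGGCGG (those of a GC box).
Col6a3: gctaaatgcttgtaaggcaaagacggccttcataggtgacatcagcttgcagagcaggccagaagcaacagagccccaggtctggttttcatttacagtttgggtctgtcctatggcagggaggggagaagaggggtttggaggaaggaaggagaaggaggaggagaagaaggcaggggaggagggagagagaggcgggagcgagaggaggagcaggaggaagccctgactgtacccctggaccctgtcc
Col5a3: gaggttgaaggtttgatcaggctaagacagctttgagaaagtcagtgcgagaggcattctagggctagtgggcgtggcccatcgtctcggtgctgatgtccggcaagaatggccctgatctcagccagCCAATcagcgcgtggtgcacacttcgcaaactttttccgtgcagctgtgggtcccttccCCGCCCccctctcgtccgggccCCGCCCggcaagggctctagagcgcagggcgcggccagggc
Col3a1: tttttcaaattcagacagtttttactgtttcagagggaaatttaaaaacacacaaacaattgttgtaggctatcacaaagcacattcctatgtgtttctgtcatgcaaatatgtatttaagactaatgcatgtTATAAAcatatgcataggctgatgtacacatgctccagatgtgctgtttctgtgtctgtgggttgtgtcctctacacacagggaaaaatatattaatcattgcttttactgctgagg
Serpinh1: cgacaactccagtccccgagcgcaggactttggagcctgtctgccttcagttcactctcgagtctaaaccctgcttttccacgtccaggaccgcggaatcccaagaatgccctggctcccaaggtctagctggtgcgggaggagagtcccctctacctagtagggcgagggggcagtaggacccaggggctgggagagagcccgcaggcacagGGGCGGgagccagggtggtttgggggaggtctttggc
No match overlaps another in these stretches. Col3a1 holds TATAAA once, Col5a3 holds CCAAT once and GGGCGG 2 times on the other strand, Serpinh1 holds GGGCGG once, and Col6a3 holds no match. Among 27 starts of the 25 kept collagens in the table, TATAAA was found at 3, CCAAT at 10 and GGGCGG at 18, and among all 32851 starts at 12.4%, 33.8% and 32.7%. A match of letters is a description and not a site.

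**Figure D2:**
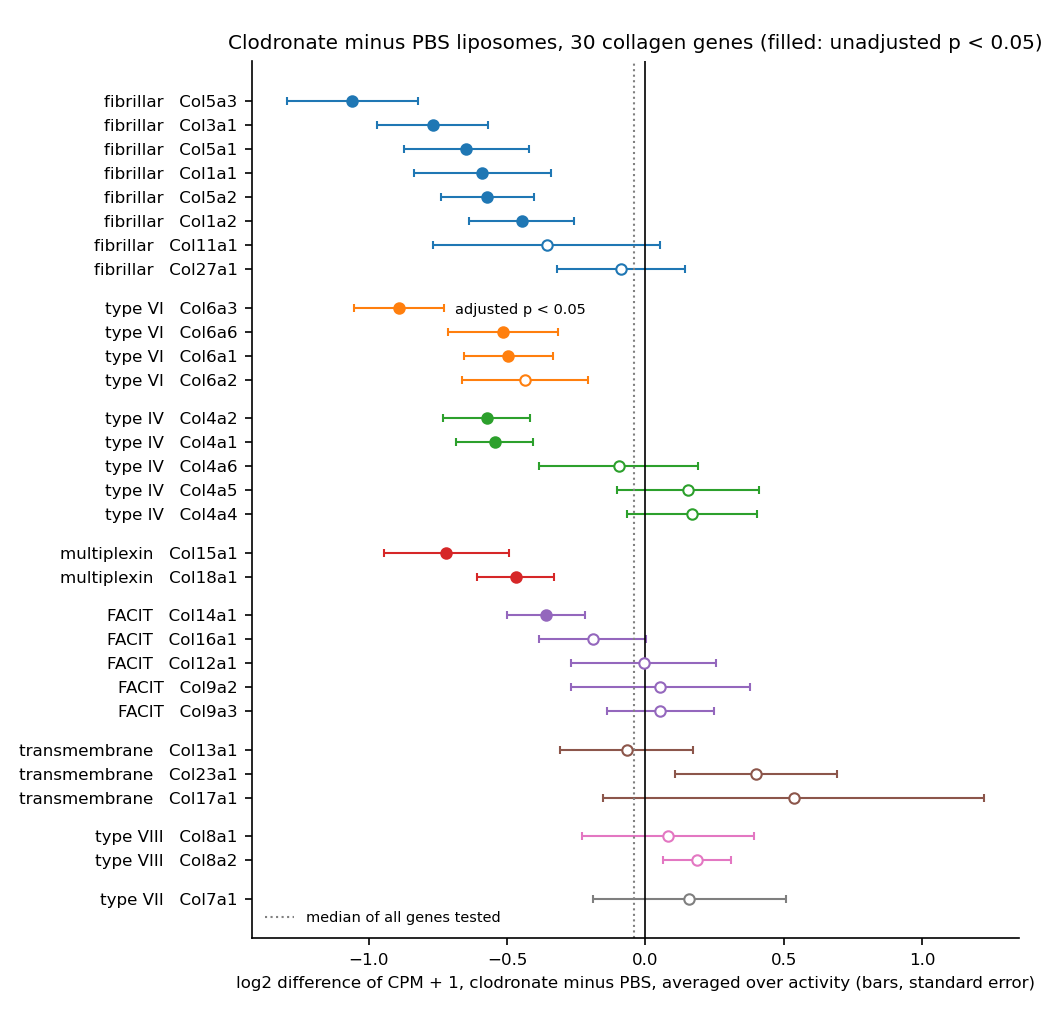
Log2 difference of CPM + 1 (horizontal axis) between clodronate and PBS mice, averaged over activity, for the 30 collagen genes grouped by class, with bars for the standard error; filled points have an unadjusted p under 0.05 and the dotted line is the median of all genes tested. All 8 fibrillar and all 4 type VI genes lie left of 0, and Col6a3, at -0.89, is the gene with an adjusted p under 0.05.

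In type VI, 4 of 4 tested genes were lower (median -0.50). Besides Col6a3, Col6a1 differed by -0.50 (adjusted p = 0.227), Col6a6, a chain that can take the place of Col6a3, by -0.51 (adjusted p = 0.335), and Col6a2 by -0.44 (adjusted p = 0.518). In type IV, 3 of 5 were lower, and the abundant pair stood apart from the rest. Col4a1 (chromosome 8, 11198423 to 11312826, minus strand) had a mean of 347 ± 53.6 CPM in hub PBS mice and 315 ± 80.1 CPM in wheel PBS mice (SD, n = 6 each). With clodronate, Col4a1 was at 158, 213, 291, 313 and 379 CPM in hub mice and 159, 172, 192, 203 and 233 CPM in wheel mice. No wheel clodronate mouse reached the lowest wheel PBS mouse, at 240 CPM, while the hub groups overlapped. The Col4a1 difference was -0.54 ± 0.14 (limma, adjusted p = 0.0956), and that of Col4a2 was -0.57 (adjusted p = 0.127). The remaining type IV genes, Col4a4, Col4a5 and Col4a6, had means of at most 4.75 CPM and no unadjusted p under 0.05. The last 500 bases of Col4a1 overlap Gm15418 on the other strand, and those of Col18a1 overlap Slc19a1. Whether the counting used strand is not given in the sources used here, so reads of such pairs cannot be told apart.

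The multiplexins Col15a1 and Col18a1, which join basement membranes to the matrix and carry endostatin-like ends, differed by -0.72 (adjusted p = 0.194) and -0.47 (adjusted p = 0.172). Col15a1 was at 83.4 ± 37.0 CPM in hub PBS, 64.1 ± 28.7 in wheel PBS, 50.7 ± 18.97 in hub clodronate and 37.4 ± 16.3 CPM in wheel clodronate mice (SD, n = 6, 6, 5 and 5). Among the FACITs, collagens that sit on the surface of fibrils, Col14a1 differed by -0.36 (adjusted p = 0.346) and the class median was -0.01. The type VIII genes Col8a1 and Col8a2, the anchoring-fibril gene Col7a1 and the transmembrane collagens Col17a1 (0.54) and Col23a1 (0.40) had higher estimates with clodronate, none with an unadjusted p under 0.05.

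**Figure D3:**
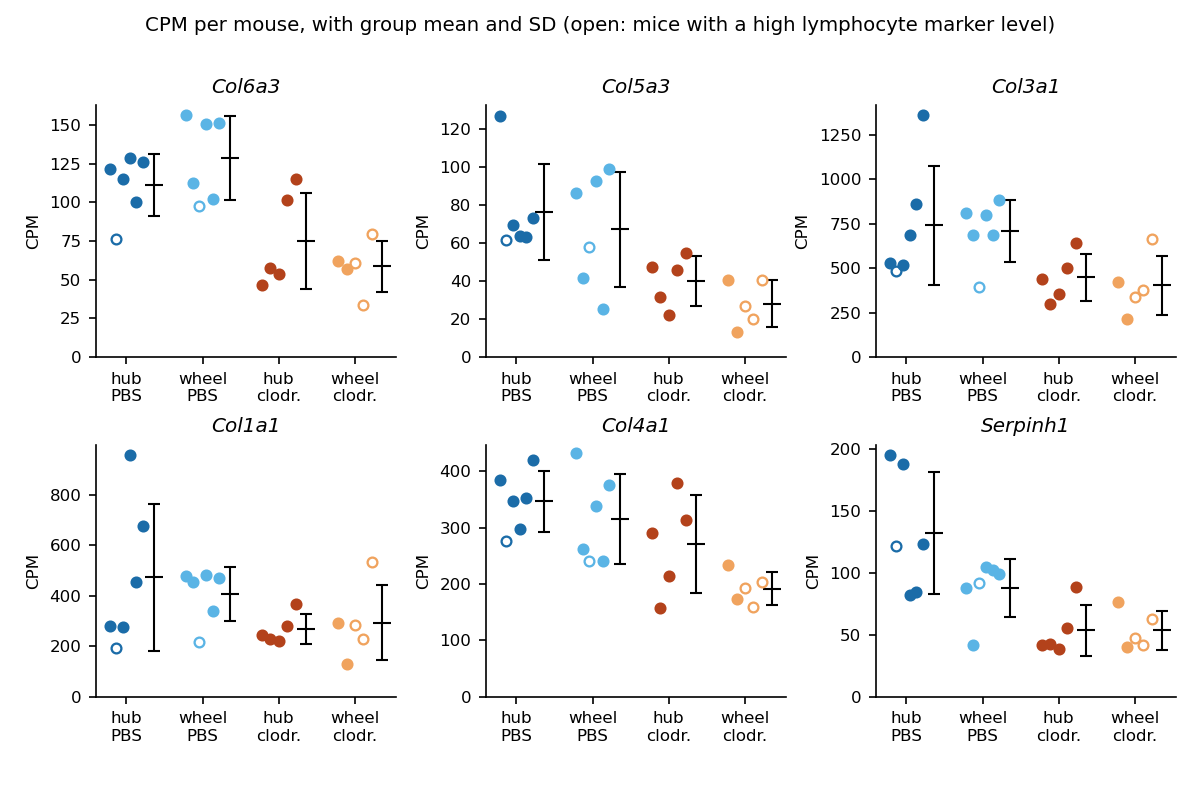
CPM of Col6a3, Col5a3, Col3a1, Col1a1, Col4a1 and Serpinh1 in each mouse by group, on linear axes from 0, with the group mean and SD beside the points; open points are the 5 mice with a high lymphocyte marker level. The wheel clodronate points of Col6a3 (33.7 to 79.3 CPM) and Col4a1 (159 to 233 CPM) lie below all wheel PBS points.

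When the liposome comparison was made within each activity group, adjusted calls were missing. In hub mice 0 of 30 collagens passed an adjusted p of 0.05 by limma, as did 0% of all genes, and 5 were lower at an unadjusted p under 0.05 against 6.08% of all genes. In wheel mice 0 of 30 passed, against 0.00661% of all genes, and 11 were lower at an unadjusted p under 0.05 against 5.54%. The count in hub mice moved with single libraries and with scaling. It was 10 without hub PBS replicate 2, beside 824 lower genes of all 15138, and 3 without hub PBS replicate 5, beside 1075. Without the 5 mice with a high lymphocyte level it was 12, beside 898, and after upper-quartile scaling 3, beside 386. It was 8 without hub clodronate replicate 5 and 3 without hub clodronate replicate 2 or 3, for which the share of all genes is not given here. Of the collagens with the smallest p-values in hub mice, Col6a6 differed by -0.80 ± 0.28 (limma, adjusted p = 0.560). In wheel mice Col4a2 differed by -0.79 ± 0.22 (limma, adjusted p = 0.191), and every wheel clodronate mouse, at 52.9, 68.1, 68.3, 78.3 and 83.7 CPM, lay below the lowest wheel PBS mouse at 88.8 CPM. The difference between these effects, which is also the difference of the wheel effects between clodronate and PBS mice, passed for 0 of 30 collagens by limma, beside 0% of all genes. It reached an unadjusted p under 0.05 for 0 of 30, beside 7.58% of all genes. Its smallest limma p-values belonged to Col27a1 (0.87), the FACIT gene Col16a1 (-0.69) and Col6a3 (-0.51), with adjusted p-values of 0.689, 0.701 and 0.741.

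The genes that build, link and hold collagen were counted in lists drawn up by their function, to be read beside the 57.4% of all genes that were lower and the 8.3% that were lower at an unadjusted p under 0.05. Of 18 tested genes for collagen biosynthesis, 17 were lower with clodronate, 3 at an unadjusted p under 0.05, with a median of -0.21. Serpinh1 fell by 0.99 on the log2 scale (SE 0.19, limma, adjusted p = 0.0228). Its level was 82.3 to 195 CPM (median 123) in hub PBS mice and 41.8 to 105 CPM (median 95.6) in wheel PBS mice. With clodronate, Serpinh1 was at 38.9, 41.6, 42.8, 55.1 and 88.9 CPM in hub mice and at 39.7, 41.9, 47.4, 62.4 and 76.5 CPM in wheel mice. In each activity group the highest clodronate mouse exceeded the lowest PBS mouse, and the 4 other hub clodronate mice lay below all hub PBS mice. The Serpinh1 call depended on the processing, with an adjusted p of 0.0583 after upper-quartile scaling and 0.197 without the 5 mice with a high lymphocyte level. Leaving out any of hub PBS replicates 1 and 3, wheel PBS replicate 6, hub clodronate replicates 2 and 3 and wheel clodronate replicates 2 and 3 also lifted it above 0.05, to at most 0.0704.

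Outside the endoplasmic reticulum the counts ran the same way without an adjusted call. Of 11 genes for processing and cross-linking 10 were lower, 2 at an unadjusted p under 0.05, and the smallest p was that of the cross-linking enzyme Loxl1 (-0.47, limma, adjusted p = 0.0836). Of 14 fibril-associated proteins 12 were lower, 6 at an unadjusted p under 0.05, led by fibronectin, Fn1 (-0.49, adjusted p = 0.0836). Of 15 basement membrane partners 11 were lower, and 6 passed the unadjusted threshold downward and 2 upward, the former led by the laminin chain Lamc1 (-0.53, adjusted p = 0.0597). The epithelial laminin chain Lama3 was among the 2 (0.72, adjusted p = 0.414). Of 9 collagen receptors 8 were lower, 4 at an unadjusted p under 0.05, with the smallest p for the discoidin receptor Ddr2 (-0.35, adjusted p = 0.170), and the integrin chain Itga2 was higher (0.79, adjusted p = 0.307). Among the 4 was Mrc1, which is also in the macrophage list below. Dpt likewise stood in both the fibril-associated and the fibroblast list, so these lists are not separate. Of 8 degradation genes 7 were lower, with a median of -0.08, and only the inhibitor Timp3 (-0.28, adjusted p = 0.444) reached an unadjusted p under 0.05.

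Cell type markers moved beside the collagens. All 8 adipocyte markers were lower with clodronate (median -0.41), 4 at an unadjusted p under 0.05 and 0 after adjustment by limma, and their mean log2(CPM + 1) was 9.26 to 10.27 in PBS mice and 8.91 to 10.10 in clodronate mice. Of 8 fibroblast markers 7 were lower (median -0.18), 1 at an unadjusted p under 0.05, with levels of 5.34 to 6.596 in PBS and 5.53 to 6.48 in clodronate mice. The 8 mural cell markers were all lower (median -0.27), 2 at an unadjusted p under 0.05, with levels of 4.95 to 5.58 in PBS and 4.44 to 5.62 in clodronate mice. All 10 macrophage markers were lower (median -0.25), 2 at an unadjusted p under 0.05, with levels of 3.72 to 5.42 in PBS and 3.64 to 4.88 in clodronate mice. Other lists had higher estimates. All 8 skeletal muscle markers were higher (median 1.52), with levels of 2.09 to 8.22 in PBS and 2.10 to 11.2 in clodronate mice, and all 12 lymphocyte markers were higher (median 0.89), with levels of 1.00 to 4.31 and 1.00 to 5.64, none of the 20 at an unadjusted p under 0.05. With the adipocyte level as a covariate, a fit chosen after seeing the data, the Col6a3 difference was -0.73 (limma, adjusted p = 0.129). In that fit 9 of 30 collagens were lower at an unadjusted p under 0.05, beside 1035 of all 15138 genes. The part of the other cell types in the collagen differences was not tested.

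In mice with PBS liposomes no collagen gene passed the test for running. By limma 0 of 30 passed an adjusted p of 0.05, beside 0% of all genes, and 0 of 30 passed an unadjusted p of 0.05, beside 4.91% of all genes in either direction. Of the 30 estimates 23 were below 0, beside 63.8% of all genes, and their median was -0.16, beside -0.08 over all genes. After upper-quartile scaling 19 were below 0 and the median was -0.09, and Col1a1, Col1a2, Col3a1 and Col5a2 turned to the other side of 0. The smallest limma p-values were those of Col6a6 (-0.45), Col4a6, a chain of smooth muscle basement membranes (0.55), and Col15a1 (-0.40), each with an adjusted p of 0.987.

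In mice with clodronate liposomes 0 of 30 collagens passed an adjusted p of 0.05 for running, beside 0.00661% of all genes, and 3 were lower at an unadjusted p under 0.05, beside 3.4% of all genes. All 3 were basement membrane genes. Col4a2 was at 70.7, 76.4, 147, 152 and 154 CPM in hub mice and at 52.9 to 83.7 CPM in wheel mice, so that 3 hub mice stood above all wheel mice, and the difference was -0.70 ± 0.23 (limma, adjusted p = 0.265). Col18a1 differed by -0.55 (adjusted p = 0.314) and Col4a1 by -0.44 (adjusted p = 0.446). Of the wheel clodronate mice, 3 are among those with a high lymphocyte level. Without the 5 such mice 0 collagens were lower at an unadjusted p under 0.05, beside 552 of all 15138 genes. Averaged over both liposomes, 0 of 30 passed an adjusted p of 0.05, beside 0% of all genes, and the same 3 genes were lower at an unadjusted p under 0.05, beside 4.16% of all genes. There Col4a2 differed by -0.49, Col18a1 by -0.39 and Col4a1 by -0.30 (adjusted p = 0.532, 0.578 and 0.603 by limma). The comparisons of the liposomes and of running share mice, so their values are not independent of each other.

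Across the 22 mice, genes for chains of the same molecule often varied together, and so did some genes for different molecules. For 8 pairs, Pearson's r of log2(CPM + 1) was tested by 100000 permutations, for which 1e-05 is the smallest p, with adjustment over the 8 pairs. The type I chains Col1a1 and Col1a2 had r = 0.97 and Spearman's rho = 0.96 (permutation p = 1e-05 for each, adjusted 2.67e-05 for each), and r = 0.96 on deviations from the group means. The ratio of Col1a1 to Col1a2 reads nevertheless ran from 0.392 to 0.879 (median 0.582). The type IV pair Col4a1 and Col4a2 had r = 0.90 and rho = 0.91 (permutation p = 1e-05 for each, adjusted 2.67e-05 for each), with 1.98 to 3.63 reads of Col4a1 per read of Col4a2. These genes lie head to head on chromosome 8, and their annotated transcripts overlap by 22 bases at the start. Within the groups their r was 0.81.

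Col1a1 and Col3a1 had r = 0.85 and rho = 0.84 (permutation p = 1e-05 for each, adjusted 2.67e-05), and Col5a1 and Col5a2 had r = 0.80 (permutation p = 4e-05, adjusted 6.4e-05) and rho = 0.86 (permutation p = 3e-05, adjusted 6e-05). Type VI was looser. Col6a1 and Col6a3 had r = 0.75 (permutation p = 3e-05, adjusted 6e-05) and rho = 0.68 (permutation p = 0.00059, adjusted 0.000944), and r = 0.63 on deviations from group means. Col6a1 and Col6a2, which lie near each other on chromosome 10, had r = 0.52 (permutation p = 0.0131, adjusted 0.0154) and rho = 0.66 (permutation p = 0.00116, adjusted 0.00155). Pearson's r moved with single mice and was 0.36 (permutation p = 0.119) without the 2 farthest from the median of Col6a1. On deviations from group means r was 0.37 (permutation p = 0.0841). In wheel PBS replicate 5, Col6a2 was at 15.5 CPM (nearest in its group 63.7) beside 69.8 CPM of Col6a1, and the part of that mouse in r was not tested. Between classes, Col1a1 and Col4a1 had r = 0.52 (permutation p = 0.0135, adjusted 0.0154) and rho = 0.49 (permutation p = 0.0232, adjusted 0.0265), with r = 0.38 on deviations (permutation p = 0.0763). The type VIII chains Col8a1 and Col8a2, the latter near the floor, had r = 0.03 and rho = -0.03 (permutation p = 0.903 and 0.905, adjusted 0.903 and 0.905). Leaving out the 2 mice farthest from the median of the first gene gave r of 0.96, 0.90, 0.90, 0.81, 0.67 and 0.51 for the type I pair, the type IV pair, Col1a1 with Col3a1, the type V pair, Col6a1 with Col6a3 and Col1a1 with Col4a1. For Col8a1 with Col8a2 it gave -0.33 (permutation p = 0.160).

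**Figure D4:**
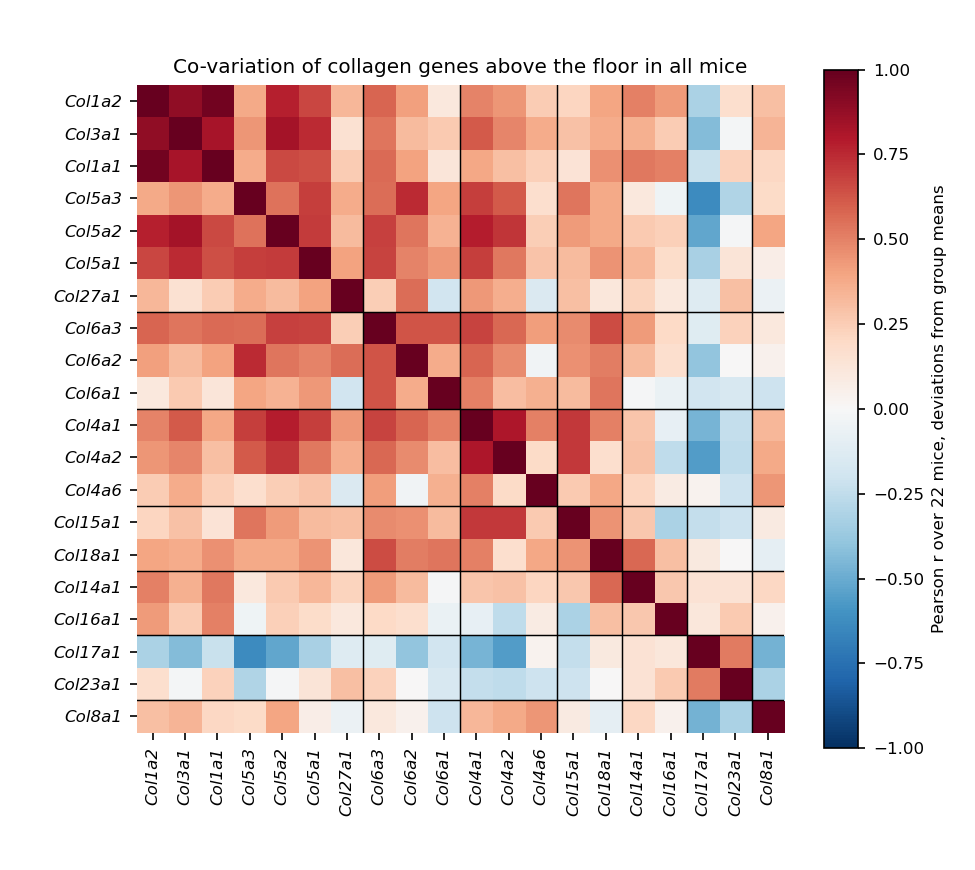
Pearson r over 22 mice between each pair of the 20 collagen genes above the floor in every mouse, on deviations of log2(CPM + 1) from the group means; rows and columns are genes ordered by class, with black lines between classes. Col1a1 and Col1a2 (0.96) and Col4a1 and Col4a2 (0.81) are deep red, and Col17a1 is blue against Col5a3 (-0.63), Col4a2 (-0.56) and Col5a2 (-0.52).

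As a description over the same deviations, Col6a3 went with Col4a1, Col5a1 and Col5a2 (r = 0.68 each) and Col15a1 with Col4a1 and Col4a2 (r = 0.71 each). Col5a2 went with Col3a1 (r = 0.83) and Col4a1 (r = 0.79), and Col6a2 with Col5a3 (r = 0.75). High values were therefore not particular to chains of the same molecule. Col6a3 and Serpinh1, a pair chosen after seeing the data, had r = 0.68 over all mice and 0.47 on deviations. All such values share each mouse's library and its mix of tissue.

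Col17a1 followed another pattern. It encodes a transmembrane collagen of the hemidesmosome that ties basal epithelial cells to the basement membrane. Its SD on the log2 scale was 1.74 over the 22 mice, the highest of the 30 genes, followed by Col11a1 at 1.03, Col7a1 at 0.85, Col5a3 at 0.81 and Col9a2 at 0.77. Col17a1 was at 5.84 to 85.1 CPM (median 36.5) in hub PBS mice and 7.34 to 109 CPM (median 10.9) in wheel PBS mice. With clodronate it was at 9.08, 23.5, 43.8, 136 and 208 CPM in hub mice and at 3.04, 4.19, 42.7, 75.6 and 105 CPM in wheel mice. Low and high mice occurred in all 4 groups. Over the 22 mice it varied with Krt14, a keratin of basal epithelium and epidermis (r = 0.97, rho = 0.96), and with Krt10, a keratin of differentiated epidermis (r = 0.96, rho = 0.92), both chosen after seeing the data and given as a description. The hub clodronate mice with 136 and 208 CPM of Col17a1 had 1222 and 1946 CPM of Krt14 and 3950 and 4443 CPM of Krt10. Col23a1, another transmembrane collagen, went with Col17a1 more loosely (r = 0.56, rho = 0.49). Mean log2(CPM + 1) of 8 epidermis markers ran from 2.45 to 9.58 over the mice, with a span of at least 5 units in every group.

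**Figure D5:**
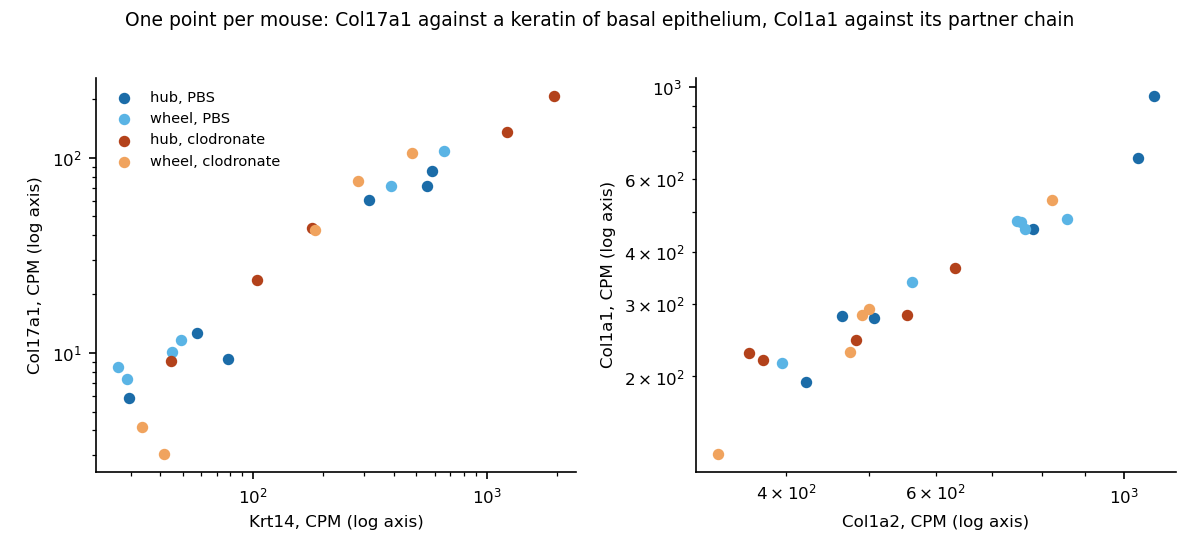
CPM of Col17a1 against Krt14 (left) and of Col1a1 against Col1a2 (right), log axes, 1 point per mouse in the colour of its group. Both sets of points lie along a line (r = 0.97 in each on the log2 scale), and in the left panel the 4 groups are spread along its whole length.

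Col11a1, a fibrillar chain best known from cartilage, was at 53.7 CPM in hub PBS replicate 4 and at most 4.90 CPM in every other mouse. The same mouse had the highest Col1a1 (955 CPM) and Col1a2 (1086 CPM), and 1593 CPM of Tchh and 697 CPM of Krt71, genes of the inner root sheath of hair. Of 6 hair markers the mean log2(CPM + 1) was 7.62 there and at most 3.33 elsewhere. Without that mouse Col6a3 stayed below an adjusted p of 0.05. Col7a1, the anchoring fibril collagen of skin, was at the floor of 1 CPM in 5 mice and at 9.78 CPM in the highest. Col9a2, a cartilage FACIT, was highest at 12.5 CPM.

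The other 14 collagen symbols were left out by the rule. Col28a1 and Col6a4 came nearest, above the floor in 4 mice each, while Col8a2 and Col9a3 were the nearest inside, above it in 11 and 12 mice. The cartilage genes Col2a1 and Col9a1, and Col20a1 and Col4a3, were above the floor in 3 mice each, Col11a2 in 2, and Col22a1 and Col6a5 in 1. Col10a1, Col19a1, Col24a1, Col25a1 and Col26a1 were at the floor in all 22 mice, which allows up to 20 reads in the deepest library.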

How the data were processed

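RNA of the mammary tissue of 22 mice was read with Lexogen QuantSeq 3′ FWD. The submitters' processing notes name STAR 2.5.3a and GRCm38, and the counting is not given in the sources used here. The deposited values are a signal in CPM per gene symbol, floored at 1. Rows of unassigned reads (4) count in the library total and stayed out of tests, and 57.2% to 64.5% of reads were assigned. Values above the floor were checked for small and moderate counts only, and all of these (100%) were whole multiples of 1 read within 0.1 read, which gave the depth. Since the floor hides counts, no count test was run. For 106 repeated symbols the higher row stood. Genes above 1 CPM in at least 5 mice (15138) went into limma 3.58.1 under R 4.3.3 (log2(CPM + 1), 4 group means, eBayes with a variance trend, Benjamini-Hochberg adjustment over all genes). Tested on simulated data for wheel against hub mice with PBS, a shift of 1.5 log2 units was found for 158 of 200 genes among 15138, with 6 false calls, and 0 were called without a change. Correlations used Python 3.11.15, numpy 2.4.6, pandas 2.3.3 and scipy 1.17.1, and figures matplotlib 3.10.9. Gene positions are from GENCODE M21, where 44 of 44 symbols were found, and the table of gene starts held 25 of the 30 genes. Genes named are those with an adjusted p under 0.05, the 3 smallest p-values of each comparison, the 8 highest levels, the 5 largest SDs and partner chains. Alternatives were other pseudocounts, filters and scalings, no variance trend, a replicate block, fits of only the groups compared, and leaving out mice. The members and lists were chosen with earlier results of these data known. The p-values rest on the spread between mice of 1 experiment.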

Additional observations from a re-analysis of the deposited data

Results flagged for a closer look

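In 13 of the 120 groups of mice checked for the 30 collagens, 1 mouse lay farther from the rest than Dixon's 95% limit allows, where chance gives about 6. That 6 holds for independent groups without a floor. Here the genes share mice and several sit partly at the floor, so 13 cannot be read as an excess. Among abundant genes, Col3a1 was at 394 CPM in wheel PBS replicate 3 (nearest 685), Col6a2 at 15.5 CPM in wheel PBS replicate 5 (nearest 63.7), Col5a3 at 127 CPM in hub PBS replicate 1 (nearest 73.3) and Col5a2 at 50.7 CPM in wheel clodronate replicate 5 (nearest 33.2). Col23a1 was at 1.61 CPM in hub clodronate replicate 1 (nearest 8.47), and Col11a1 at 53.7 CPM in hub PBS replicate 4 (nearest 3.18). The rest were near the floor. Col7a1 was at 1 CPM in hub PBS replicate 5 (nearest 3.41), Col12a1 at 2.98 CPM in wheel clodronate replicate 3 (nearest 1.28) and Col6a6 at 5.93 CPM in wheel PBS replicate 3 (nearest 1.99). Col9a3 was at 3.09 CPM in hub clodronate replicate 4 (nearest 1.17) and at 5.37 CPM in wheel clodronate replicate 1 (nearest 1.70). Col8a2 was at 2.36 CPM in hub PBS replicate 3 (nearest 1.35) and at 1.39 CPM in wheel PBS replicate 5, where the other 5 mice were at the floor.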

How the results depend on the processing

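Under the alternatives run, no correlation changed sign but that of Col8a1 and Col8a2 (-0.33 without the 2 mice farthest from the median of Col8a1), and no difference did among Serpinh1 and the 3 collagens with the smallest p in each comparison, while for running with PBS liposomes Col1a1, Col1a2, Col3a1 and Col5a2 turned after upper-quartile scaling. For clodronate against PBS averaged over activity, the collagens with an adjusted p under 0.05 numbered 2 where genes needed 5 CPM on average (Col5a3 and Col6a3), 0 with the replicate block, 0 without the 5 mice with a high lymphocyte level, 0 with the adipocyte covariate (chosen after seeing the data), and 0 to 2 as single mice were left out. In wheel mice alone that count was 0 to 1, reaching 1 without wheel clodronate replicate 2 (Col6a3, adjusted p = 0.0492). For each of these counts the cause was not tested. The Col6a3 difference ran from -0.98 to -0.80 as mice were left out, and was -0.84 with the block (adjusted p = 0.0874). Serpinh1 had an adjusted p of 0.0575 with no filter, 0.0505 after scaling to assigned reads, 0.0554 with no variance trend, 0.0835 with the block and 0.145 with the adipocyte covariate. Collagens lower at an unadjusted p under 0.05 averaged over activity numbered 9 with the adipocyte covariate and 12 to 15 as mice were left out, against 14. Of all 15138 genes, 1035 were lower at that threshold with the covariate, against 1256 in the main fit. The median difference of the collagens was -0.068 in hub mice and -0.080 averaged over activity when no filter was used, where 39 collagens were tested and the added ones sat mostly at the floor, and -0.63 in wheel mice where genes needed 5 CPM on average, which left 19. For running in clodronate mice the count of 3 fell to 1 without wheel clodronate replicate 4. Averaged over liposomes it was 5 without hub PBS replicate 2, beside 684 of all 15138 genes. The correlation of Col6a1 and Col6a2 was 0.42 without the 5 mice with a high lymphocyte level. Over all genes, the 31 calls for clodronate became 54 under that stricter filter, 20 with no variance trend, 12 after upper-quartile scaling, 15 after scaling to assigned reads, 11 with the block and 0 both without those 5 mice and with the adipocyte covariate.

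Same-numbered mice were different animals, and their deviations correlated between -0.388 and 0.517, over 0.1 in 10 of 21 pairs, so the numbers were not treated as pairs and the replicate block gave 0 collagen calls. Genes near the floor, with at most 13 to 20 hidden reads, could not show a small difference at this depth.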

Other observations

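Col6a4, a type VI chain above the floor in too few mice to be kept, was above it in 4 of the 5 mice with a high lymphocyte level, at 4.81 CPM in wheel PBS replicate 3 and at 2.67, 3.46 and 4.00 CPM in wheel clodronate replicates 3, 4 and 5. It was at the floor in the 18 other mice, among them hub PBS replicate 2, the fifth mouse with a high lymphocyte level. The pattern was noticed in the values and was not tested. Prelp, a leucine-rich protein that anchors basement membranes to fibrils, had the smallest p among fibril-associated genes for running, at 108.6 ± 44.6 CPM in hub PBS, 75.1 ± 35.3 in wheel PBS, 128 ± 58.1 in hub clodronate and 45.4 ± 18.2 CPM in wheel clodronate mice (SD, n = 6, 6, 5 and 5). Averaged over liposomes Prelp differed by -0.99 on the log2 scale (limma, adjusted p = 0.501).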
